A study of Mus musculus with 12 samples.

Results

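Old Pax7Low satellite cells were set against young Pax7High satellite cells, as 3 arrays titled Old_Pax7_low against 3 titled Young_Pax7_high, 6 of the 12 arrays of the series. All 14184 probe sets with exactly 1 gene symbol, of 18007 deposited, entered the comparison, and they name 13076 genes. The question was whether old Pax7Low cells carried the commitment genes that mark young Pax7Low cells or had the profile of young Pax7High cells, and where the profiles parted. The old cells came from mice labelled as 28 months old and the young cells from mice labelled as 6 weeks old. Every group carried the transgene Tg:Pax7-nGFP, which drives nuclear green fluorescent protein from Pax7 regulatory sequence, and every sample is labelled as quiescent skeletal muscle satellite cells. High and Low name the level of that reporter, so that they rank the reporter rather than Pax7 protein or Pax7 mRNA. Young Pax7Low cells and old Pax7High cells, 3 arrays each, supplied the levels needed to place the comparison. Age and reporter fraction differed together between the old Pax7Low and young Pax7High arrays and cannot be told apart in their difference. Amplification before labelling is described for old samples, and for young samples no such step is given, so that preparation and age cannot be told apart either. Nothing in the labels ties the arrays of a group to separate animals, and p-values measure the spread between these arrays. Throughout, a level is a log2 RMA value and a difference is old Pax7Low minus young Pax7High unless another pair is named.

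Satellite cells are the stem cells of skeletal muscle and lie between the muscle fibre and its basement membrane. Pax7 marks them, Myf5 and Myod1 mark the step to myoblasts, and Myog (myogenin) opens terminal differentiation, in which cells leave the cell cycle, fuse through the membrane protein Mymk (myomaker) and build the contractile apparatus. Quiescent cells hold these later genes down, and in young mice cells with a high Pax7 reporter are regarded as further from commitment than cells with a low one.

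The sorted fractions carried the markers of satellite cells, and some markers of other cells were high as well. In every old Pax7Low array, Myf5, Cd34, Vcam1, Calcr, Chrdl2 and Sdc4 lay at or above the 90.7 percentile of all genes. Cdh15 lay at or above the 83.6 percentile and Itga7 at or above the 63.4 percentile. Over 13076 genes, Pax7 lay between the 95.1 and 98.5 percentile of the old Pax7Low arrays and between the 94.4 and 96.3 percentile of the young Pax7High arrays. Its level was 8.88, 8.15 and 7.91 in old Pax7Low and 8.15, 7.95 and 8.36 in young Pax7High, a difference of 0.16 (95% interval -0.53 to 0.85), so that the mRNA did not follow the reporter label across the 2 ages. Of the markers of other cells, Ptprc (CD45), Ms4a1 and Adgre1 stayed at or below the 34.5, 9.34 and 14.8 percentile of every old Pax7Low array, whereas S100a8 and S100a9, made by neutrophils, lay at or above the 97.3 percentile, and at or above the 89.1 percentile of every young Pax7High array. Lyz2, a lysozyme of macrophages and neutrophils, lay between the 88.5 and 95.2 percentile in old Pax7Low and between the 53.8 and 79.5 percentile in young Pax7High. Cdh5, of endothelial cells, lay at or above the 77.7 percentile of every old Pax7Low array. Rgs5, of pericytes, lay at or above the 92 percentile, and Acta2, of smooth muscle, at or above the 98.2 percentile. Other markers of these cells lay lower in old Pax7Low. Kdr and Tie1, of endothelial cells, lay between the 33 and 45.3 and the 46.7 and 69.2 percentile. Pdgfrb and Myh11, of pericytes and smooth muscle, lay between 33.1 and 37.2 and between 43.3 and 58.8. Ltf and Retnlg, of neutrophils, lay between 18.1 and 33.3 and between 43 and 75.3. The arrays of old cells were noisier. The SD around the group means was 0.395 to 0.440 for the old Pax7Low arrays and 0.239 to 0.290 for the young Pax7High arrays. Principal component 1 (26.5% of the variance) parted the ages. Old Pax7Low arrays were at 14.95, 28.07 and 27.09 and old Pax7High arrays at 25.2 to 39.69. Young Pax7High arrays were at -22.77 to -8.86 and young Pax7Low arrays at -43.08 to -32.07. Old Pax7Low replicates 3 and 2 stood apart on components 2 and 3 (13.3% and 11.1%). Array medians ran from 4.35 to 4.48 in old Pax7Low and from 4.56 to 4.68 in young Pax7High. Centring the arrays on their medians moved the median difference over all probe sets from -0.08 to 0.15.

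An old Pax7Low array differed from a young Pax7High array by 0.523 log2 units on average over the probe sets (9 pairs, 0.448 to 0.575). The distance to young Pax7Low arrays averaged 0.549 and that to old Pax7High arrays 0.519. The old Pax7Low arrays were as far from each other, at 0.520 on average, as from either Pax7High group. Young Pax7High arrays lay 0.341 apart from each other. Each of the 3 old Pax7Low arrays was nearer on average to the young Pax7High arrays, at 0.475, 0.535 and 0.558, than to the young Pax7Low arrays, at 0.502, 0.567 and 0.577. From the old Pax7High arrays they lay 0.487, 0.519 and 0.551, nearer than young Pax7High for replicates 2 and 3 only. By array correlation across probe sets, the median was 0.926 with young Pax7High and 0.917 with young Pax7Low, the same order of the young fractions. With old Pax7High it was 0.918, below that with young Pax7High, so that the 2 measures ordered the Pax7High groups differently. These distances are given as a description, since pairs share arrays and all share the normalisation.

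**Figure D1:**
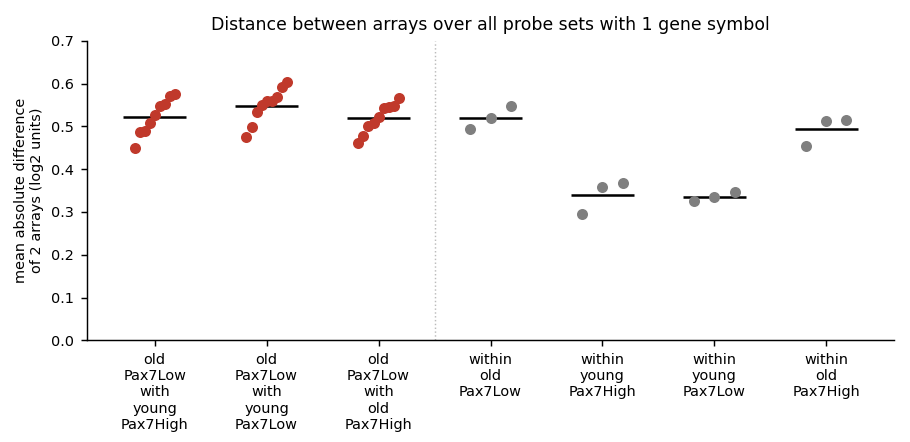
Mean absolute difference between 2 arrays over all probe sets with 1 gene symbol (vertical axis, log2 units), with 1 point for each pair of arrays and a bar at the mean. Pairs of an old Pax7Low array with another group (red) average 0.523, 0.549 and 0.519, and pairs within old Pax7Low (grey) average 0.520, above the 0.341 of pairs within young Pax7High.

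Over all probe sets, low ones included, the arrays could show likeness to within a factor of 2 for most. The 95% interval of the difference lay inside -1 to 1 log2 units for 8663 probe sets, 61.1% of those tested. Among probe sets above the 40th percentile on at least 3 arrays the share was 49%, and above the 60th it was 45.1%. In the comparison of young Pax7Low with young Pax7High the same held for 70.0%, and in that of old Pax7Low with young Pax7Low for 58.7%. For the remaining probe sets the interval reached a factor of 2 or more, and likeness at that scale was not shown.

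Commitment genes bear on the question most directly. Of 69 measured genes on 4 lists (commitment regulators, myoblast fusion, contractile and muscle structure, acetylcholine receptor and synapse), 1 rose and 2 fell in old Pax7Low against young Pax7High, where 0.310% of all probe sets rose and 1.96% fell. Their median difference was -0.09, against -0.08 over all genes, and for 41 of the 69 (59.4%) the interval lay inside -1 to 1, close to the 61.1% of all probe sets. Against the same young Pax7High arrays, young Pax7Low cells showed 12 of the 69 genes higher and 0 lower (0.395% and 0.331% of all probe sets), with a median of 0.30. At an unadjusted p under 0.05 there were 12 of the 69 (17.4%) in the first comparison, close to the 16.9% of all probe sets, and 26 (37.7%) in the second, where 8.54% of all probe sets were. Against young Pax7Low cells, old Pax7Low cells showed 0 higher and 14 lower (0.959% and 4.05% of all probe sets), with a median of -0.48. That these genes mark young Pax7Low cells, and that old Pax7Low cells lack them relative to young Pax7Low, was already known when the comparison was chosen. The counts of both comparisons with young Pax7Low cells are therefore given as a description. The last 2 comparisons each share arrays with the first, and their counts stand side by side without a test between them. In sorted cells, fewer cells expressing a gene and less RNA of that gene per cell cannot be told apart.

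Mymk, which lets myoblasts fuse, was the commitment gene called higher. Its level was 8.18, 5.96 and 8.13 in old Pax7Low, 4.40, 5.33 and 4.41 in young Pax7High, 9.99, 11.38 and 11.07 in young Pax7Low, and 4.51, 5.02 and 4.53 in old Pax7High. The old Pax7Low arrays lay above every young Pax7High and old Pax7High array and below every young Pax7Low array. The difference from young Pax7High was 2.71 ± 0.52 (SE), with adjusted p = 0.016. That from young Pax7Low was -3.39, given as a description, since Mymk is among the genes named as highest in young Pax7Low. Without old Pax7Low replicate 3 the adjusted p against young Pax7High was 0.053, without young Pax7High replicate 1 it was 0.059 and without young Pax7High replicate 3 it was 0.088. When only the 6 arrays compared entered the fit it was 0.081.

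Myog, the switch of terminal differentiation, was at 6.43, 3.58 and 6.14 in old Pax7Low, at 3.84, 3.50 and 2.87 in young Pax7High and at 8.99, 10.18 and 10.26 in young Pax7Low. Replicate 2 of old Pax7Low lay within the young Pax7High range, and replicates 1 and 3 lay between the young fractions. The difference of 1.98 ± 0.59 did not pass (adjusted p = 0.10, interval 0.72 to 3.24). Without old Pax7Low replicate 2 it was 2.88 and passed (adjusted p = 0.0061), so that this array decided the call. Actc1, the cardiac actin of nascent muscle, had the same order of arrays, at 6.36, 4.42 and 6.29 in old Pax7Low against 4.41, 5.19 and 3.88 in young Pax7High and 8.91, 10.79 and 10.64 in young Pax7Low. Its difference from young Pax7High was 1.20 ± 0.55 (adjusted p = 0.28). Cdkn1c (p57), an inhibitor of the cell cycle, was at 6.60, 5.51 and 7.65 in old Pax7Low, at 5.37, 5.56 and 5.20 in young Pax7High and at 8.80, 10.06 and 10.20 in young Pax7Low, with a difference of 1.21 ± 0.48 (adjusted p = 0.22). All 3 genes were lower in old Pax7Low than in young Pax7Low, with differences of -4.43, -4.42 and -3.10. They were named as high in young Pax7Low, so these differences are given as a description.

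**Figure D2:**
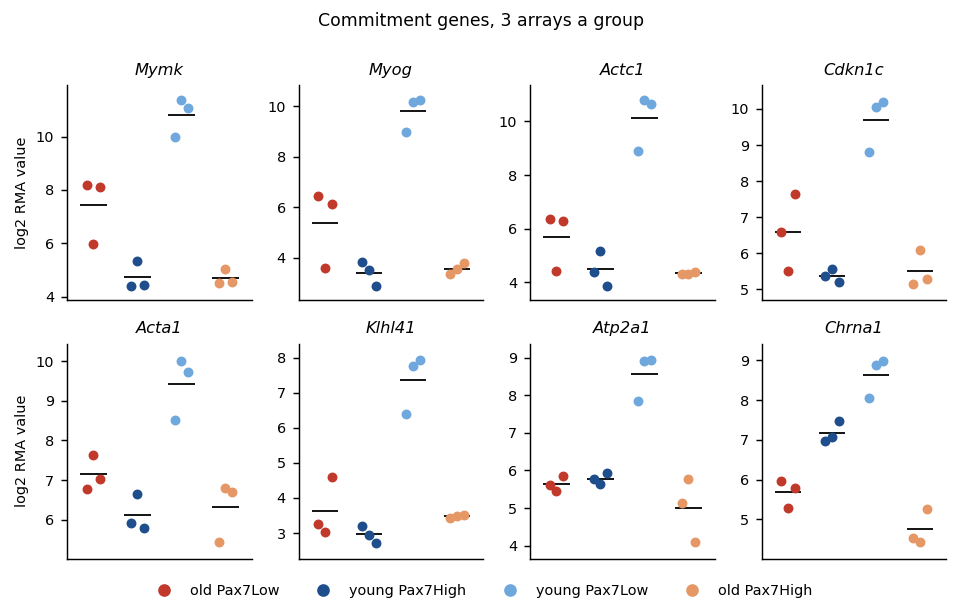
Log2 RMA values of 8 commitment genes (vertical axes) on the 3 arrays of each group, with a bar at the group mean and replicates 1 to 3 from left to right. Mymk in old Pax7Low lies between the young fractions on all 3 arrays, and Myog, Actc1 and Cdkn1c do so on replicates 1 and 3. Atp2a1 lies near young Pax7High on all 3 arrays. Klhl41 does so on replicates 1 and 2 and lies between the young fractions on replicate 3.

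Of the other genes high in young Pax7Low, Atp2a1 and St8sia5 lay within a factor of 2 of young Pax7High in old Pax7Low cells, and for others the interval reached further or the arrays lay above. Atp2a1, the calcium pump of fast fibres, was at 5.61, 5.46 and 5.87 in old Pax7Low and at 5.77, 5.65 and 5.93 in young Pax7High, with overlapping arrays, and at 7.85, 8.91 and 8.93 in young Pax7Low. The interval of its difference, -0.96 to 0.67, lay within a factor of 2. St8sia5, a sialyltransferase of gangliosides, was at 3.15, 3.00 and 3.09 against 3.32, 2.91 and 2.91, while young Pax7Low arrays held 5.62, 6.99 and 6.75. Its interval was -0.62 to 0.68. The levels in these 2 groups lay below every array median (4.35 to 4.68), where a narrow interval does not show like expression. Mylk4, a myosin light chain kinase, gave 2.80, 2.53 and 2.58 against 2.57, 2.28 and 2.34, with 5.28, 7.26 and 6.62 in young Pax7Low, and an interval of -0.56 to 1.04. Klhl41, a sarcomere-associated kelch protein, was at 3.25, 3.02 and 4.59 against 3.19, 2.96 and 2.73 (interval -0.24 to 1.57). Replicate 2 of old Pax7Low lay within the young Pax7High range, replicate 1 just above it and replicate 3 further above. Acta1, the actin of adult muscle, was at 6.78, 7.63 and 7.03 against 5.92, 6.65 and 5.78 without overlap, a difference of 1.03 ± 0.43 that did not pass (adjusted p = 0.24). Chchd10, a mitochondrial protein, was at 5.69, 5.99 and 6.35 against 5.12, 4.91 and 5.14, also without overlap (0.95 ± 0.35, adjusted p = 0.19). Myh3, embryonic myosin, was low in these groups, at 2.65, 2.10 and 2.31 against 1.96, 2.05 and 2.24, and also in young Pax7Low, at 2.45, 2.60 and 2.92.

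Chrna1 and Des fell below young Pax7High. Chrna1, a subunit of the acetylcholine receptor at the neuromuscular junction, was at 5.96, 5.28 and 5.80 in old Pax7Low, at 6.98, 7.06 and 7.47 in young Pax7High, at 8.05, 8.88 and 8.99 in young Pax7Low and at 4.54, 4.44 and 5.26 in old Pax7High. Both old fractions lay below both young fractions on every array, and the difference from young Pax7High was -1.49 ± 0.31 (adjusted p = 0.024). Des (desmin), the intermediate filament of muscle, was at 8.60, 8.38 and 8.43 against 9.30, 9.39 and 9.48 (-0.92 ± 0.20, adjusted p = 0.032). Neither call survived centring the arrays on their medians, a second quantile normalisation or removal of the trend against mean expression. Without young Pax7High replicate 3 their adjusted p was 0.13 and 0.15, without young Pax7High replicate 2 it was 0.081 and 0.12, and without old Pax7Low replicate 2 it was 0.073 and 0.077. Des also lost its call without old Pax7Low replicate 3 (adjusted p = 0.07), young Pax7High replicate 1 (0.06), and young Pax7Low replicate 2 or 3 (0.05 each when rounded). The count of 3 commitment calls was 1 without young Pax7High replicate 1 or 2, 0 without replicate 3 and 1 with centred arrays, Mymk. The list medians were small, at -0.12 for regulators, -0.14 for fusion, -0.01 for contractile genes and -0.25 for the receptor list, and those of the first 3 turned to 0.11, 0.09 and 0.22 under centring.

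Muscle promoters are known for E-boxes, the sites of the myogenic basic helix-loop-helix factors. The promoters of 3 commitment genes with a match to the E-box letters CAGCTG are shown, together with that of Irgm1, which carried the only call among interferon genes, with its matches to the interferon element GAAANNGAA. The first motif reads the same on both strands and the second was searched on both, and no match of one overlapped the other in these stretches. Capitals mark each match within the stretch shown, and the 2 matches of Irgm1 overlap each other. All stretches are from the RefSeq promoter table for GRCm38.p6, run from 5′ to 3′ on the gene's strand and end upstream of the annotated start site. They are chr2:69669966-69670025 on the plus strand for Klhl41 (match 121 bases before the start), chr1:135836150-135836209 on the plus strand for Tnnt2 (151 bases), chr2:73580350-73580409 on the minus strand for Chrna1 (38 bases) and chr11:48871421-48871471 on the minus strand for Irgm1 (15 bases from the nearer match).
Klhl41: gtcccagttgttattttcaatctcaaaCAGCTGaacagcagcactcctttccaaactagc
Tnnt2: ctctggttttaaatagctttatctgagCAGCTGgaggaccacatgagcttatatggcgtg
Chrna1: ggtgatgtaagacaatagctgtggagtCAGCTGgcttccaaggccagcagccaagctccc
Irgm1: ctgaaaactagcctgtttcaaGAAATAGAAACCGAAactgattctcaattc
The letters CAGCTG were found in 16 of 30 contractile promoters in the table, in 2 of 8 of the regulators, 1 of 4 of the fusion genes and 3 of 6 of the receptor list, and in 14.7% of all 27025 promoters. The interferon letters were found in 13 of 32 interferon promoters (40.6%) and in 8.18% of all. Genes with the E-box letters did not share 1 pattern. Klhl41 and Tnnt2 in old Pax7Low were 0.66 ± 0.42 and 0.78 ± 0.39 from young Pax7High (adjusted p = 0.44 and 0.33), and Chrna1 was below it. A match is a description of letters in the window.

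Across all genes the differences ran mostly downward. In old Pax7Low against young Pax7High, 322 of 14184 probe sets (2.27%) passed an adjusted p of 0.05, 44 of them higher and 278 lower, and 2398 had an unadjusted p under 0.05. By gene these were 39 higher and 273 lower, and 0 genes had probe sets called both ways. Called or not, 5617 of 13076 genes had a difference above 0 and 7459 below. The gene lists below are to be read against these counts and against the 0.310% of probe sets called higher and 1.96% called lower. In this fit the probe set that represents the gene was called for 295 genes. The share of calls that were lower depended on the scale, since it was 86.3% as deposited, 60.5% with arrays centred on their medians (70 higher, 107 lower), 64.7% after a second quantile normalisation (72 and 132) and 61.7% with the trend against mean expression removed (79 and 127). When only the 6 arrays entered the fit, 18 were higher and 88 lower. Leaving out young Pax7High replicate 3, 2 or 1 left 84, 111 or 217 calls, and leaving out old Pax7Low replicate 2 or 3 left 223 or 262. For comparison, old Pax7High against young Pax7High gave 52 higher and 194 lower (0.367% and 1.37%), and old Pax7Low against old Pax7High gave 6 and 6 (0.0423% each).

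**Figure D3:**
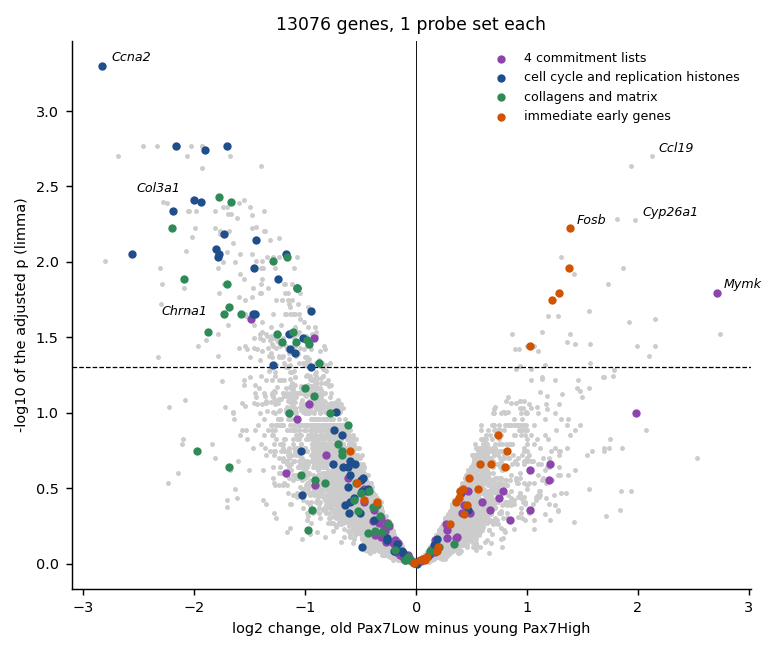
Log2 difference between old Pax7Low and young Pax7High (horizontal axis) against -log10 of the limma adjusted p (vertical axis) for 13076 genes, with the 4 commitment lists, cell cycle and replication histone genes, matrix genes and immediate early genes coloured. The dashed line marks an adjusted p of 0.05, above which cell cycle and matrix genes lie on the left and 5 immediate early genes and Mymk on the right.

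Genes of the cell cycle were lower in both old fractions than in young Pax7High cells. Of 47 measured, 17 fell and 0 rose, where 1.96% of all probe sets fell and 0.310% rose. The median difference was -0.62 against -0.08 over all genes, and 42 were below 0, as were 7459 of all 13076 genes. Old Pax7High against young Pax7High gave 16 lower and a median of -0.81. Young Pax7Low against young Pax7High gave 1 lower and 1 higher, with a median of -0.26 and 34 of 47 below 0. Between the old fractions 0 were called by limma, with a median of 0.04. Ccna2, the cyclin of S and G2 phase, had the largest fall of any gene named by the rule, at 3.80, 3.44 and 3.94 in old Pax7Low against 5.97, 6.99 and 6.72 in young Pax7High (-2.83 ± 0.27, adjusted p = 0.0005, 7.1-fold lower). Young Pax7Low cells were between, at 5.33, 5.39 and 5.09, and old Pax7High cells were at 3.59, 3.93 and 4.14. Mki67, a marker of cycling cells, was at 3.37, 3.34 and 3.70 against 4.87, 5.75 and 5.51 (-1.91 ± 0.24, adjusted p = 0.0018). Top2a, which untangles replicated DNA, was at 3.27, 3.13 and 3.07 against 4.37, 5.87 and 5.80 (-2.19 ± 0.33). Smc4, a condensin subunit, and Prc1, of the cytokinetic spindle, fell by 2.00 and 1.94 on the log2 scale. Ccnb2, Ccnd1, Cdk1, Aurkb, Kif11, Kif23, Tpx2, Birc5, Mad2l1, Racgap1, Anln and Ect2 were the others called. Pcna, the replication clamp, was not called and had a difference of 0.40. The 6 genes of the replicative helicase were not called either, from -0.66 for Mcm4 to -0.07 for Mcm2. Of the genes given here with a value and called, each kept its call on every array left out. The count fell to 7 without young Pax7High replicate 3 and to 10 without replicate 2, and was 11 with centred arrays.

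Replication histones, made in S phase, followed the same direction, with 8 of 20 lower, 0 higher and a median of -0.70 (1.96% and 0.310% of all probe sets). Old Pax7High against young Pax7High also gave 8 lower, with a median of -0.95. Young Pax7Low against young Pax7High gave 1 lower and 0 higher, with a median of -0.50 and 15 of 20 below 0. Between the old fractions 0 were called by limma, with a median of 0.18. H2bc14 was at 7.88, 7.94 and 8.26 in old Pax7Low and 9.66, 9.76 and 9.77 in young Pax7High, a fall of 1.70 ± 0.21 (adjusted p = 0.0017). H1f5, a linker histone, was at 6.04, 5.43 and 6.08 against 7.97, 8.18 and 7.91, and H2ac4 was at 2.67, 3.81 and 4.78 against 6.02, 6.74 and 6.17. Without young Pax7High replicate 2 the adjusted p of H2ac4 was 0.051, and the list count was 3. Without old Pax7Low replicate 2 the count was 4, and with centred arrays it was also 4. Histone genes form families of near-identical sequence, and probe sets of single members are uncertain. Stmn1 (stathmin), a microtubule regulator of dividing cells, was at 6.39, 5.78 and 6.77 against 8.35, 8.88 and 8.55 (-2.28 ± 0.33, adjusted p = 0.004).

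Matrix genes were lower in both old fractions than in young Pax7High cells. Of 55 measured, 19 fell and 0 rose (1.96% and 0.310% of all probe sets), with a median of -0.88. Below 0 were 51, as were 7459 of all 13076 genes. Old Pax7High against young Pax7High gave 14 lower and a median of -0.72. Young Pax7Low cells were also lower than young Pax7High, with 5 called lower, 0 higher and a median of -0.46. In that comparison 49 of the 55 were below 0, as were 6942 of all 13076 genes. Between the old fractions 0 were called by limma, with a median of -0.19. Col3a1, a fibrillar collagen, was at 6.26, 6.92 and 7.08 in old Pax7Low, 8.26, 8.58 and 8.73 in young Pax7High, 8.08, 8.13 and 8.21 in young Pax7Low and 6.24, 5.87 and 6.44 in old Pax7High. Both old fractions lay below both young ones, and the difference from young Pax7High was -1.77 ± 0.25 (adjusted p = 0.0037). Col1a2 was at 5.08, 5.85 and 5.51 against 6.62, 8.04 and 8.05 (-2.09 ± 0.39), and Col1a1 was at 5.76, 5.60 and 5.55 against 6.40, 7.84 and 7.73 (-1.69 ± 0.34). Thbs1 (thrombospondin 1) fell by 2.20 and Tnc (tenascin C) by 1.87 on the log2 scale. Lamc1, a laminin chain of the basement membrane that encloses the satellite cell, was at 7.61, 7.75 and 7.24 against 8.77, 9.36 and 9.48 (-1.67 ± 0.24, adjusted p = 0.004). The count of 19 fell to 3 without young Pax7High replicate 2 and to 5 without replicate 3, to 10 and 11 without old Pax7Low replicates 2 and 3, and to 9 with centred arrays.

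Fibroblast-like cells also express several of these genes. Of 17 fibro-adipogenic markers 4 fell, namely Thy1, Col1a2, Col3a1 and Col1a1, 3 of which are on the matrix list as well. The summed level of the list, in linear RMA units, ran from 2605 to 3954 in old Pax7Low and from 3664 to 5630 in young Pax7High. Of its defining markers, Pdgfra was at 3.28 on average against 3.53, Dpt, at or above the 99.5 percentile of every array of both groups, at 10.06 against 10.31, and Pcolce2 at 5.49 against 6.67. Thy1 (CD90) was at 7.88, 7.11 and 5.56 against 8.88, 9.50 and 9.17 (-2.33 ± 0.55, adjusted p = 0.043), a call lost with centred arrays and on leaving out any of 9 arrays singly, with adjusted p up to 0.17. The count of 4 was 1 without young Pax7High replicate 2 or 3 and 2 without old Pax7Low replicate 2. All 21 endothelial markers had a difference below 0, as had 7459 of all 13076 genes, with a median of -0.56. By limma 0 were called (7 at an unadjusted p under 0.05). Called were 2 with the replicate number as a block, 2 without young Pax7High replicate 1 and 1 without old Pax7Low replicate 2. Of 12 pericyte and smooth muscle markers 10 were below 0, with a median of -0.45 and 0 called (2 unadjusted). Young Pax7Low cells also lay below young Pax7High on these lists. Their medians were -0.39 for fibro-adipogenic, -0.70 for endothelial and -0.65 for pericyte and smooth muscle markers. Below 0 were 16 of 17, 19 of 21 and 8 of 12, with 0 called by limma (1, 11 and 6 unadjusted). The part of such cells in the matrix result was not tested.

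The called members of the immediate early list, genes that cells switch on quickly after a stimulus such as enzymatic digestion, were all higher in old Pax7Low cells. Of 30 measured, 5 rose and 0 fell (0.310% and 1.96% of all probe sets), with a median of 0.41. Above 0 were 25, as were 5617 of all 13076 genes. Fosb was at 10.75, 10.52 and 10.72 in old Pax7Low, 9.39, 9.23 and 9.19 in young Pax7High, 10.09, 9.56 and 9.58 in young Pax7Low and 9.73, 9.39 and 9.23 in old Pax7High. The old Pax7Low arrays were above all others, and the difference from young Pax7High was 1.39 ± 0.22 (adjusted p = 0.006). Fos was at 9.31, 9.44 and 9.39 against 7.95, 7.96 and 8.08 (1.38 ± 0.25, adjusted p = 0.011), with 9.29, 8.47 and 8.60 in young Pax7Low and 7.27, 7.31 and 6.70 in old Pax7High. Junb was at 7.74, 7.76 and 7.93 against 6.46, 6.74 and 6.55 (1.22 ± 0.24, adjusted p = 0.018). Socs3, a feedback inhibitor of cytokine signalling, and Nr4a1, an orphan nuclear receptor, rose by 1.29 and 1.03. Nr4a1 was at 9.11, 8.96 and 9.11 in old Pax7Low and 9.12, 9.19 and 9.17 in young Pax7Low, and its difference between these fractions was -0.10 (adjusted p = 0.84). Atf3 had a difference of -0.35 and Klf6 of -0.60, neither called.

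Fos, Junb and Nr4a1 were also among the calls between the old fractions, at 2.28, 1.45 and 1.73 above old Pax7High (adjusted p = 0.0045, 0.043 and 0.017). With centred arrays, a second quantile normalisation or the trend removed, 5 genes of the list were again called higher. Without young Pax7High replicate 2 or 3, 1 immediate early gene was called, and without replicate 1 there were 3. The adjusted p of Fos was then 0.055 without replicate 2 and 0.053 without replicate 3. That of Junb was 0.053 and 0.08, and that of Socs3 0.059 and 0.096. Without replicate 1, Junb was at 0.057.

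Genes of satellite cell identity showed both likeness and difference. Of 21 measured, 1 rose and 2 fell, with a median of -0.06. Myf5 was at 9.46, 8.69 and 9.31 in old Pax7Low against 8.81, 8.72 and 9.25 in young Pax7High (0.22, interval -0.39 to 0.83). Vcam1, an adhesion molecule used to sort these cells, was at 9.23, 8.47 and 8.76 against 8.85, 8.89 and 8.86 (interval -0.56 to 0.46), and Calcr, the calcitonin receptor of quiescent satellite cells, was at 7.30, 7.21 and 7.69 against 7.15, 7.51 and 7.69 (interval -0.96 to 0.86). The groups overlapped for all 3. Pax3 (interval -0.33 to 0.68) and the Fgf signalling inhibitor Spry1 (-0.86 to 0.48) gave the same picture. Myod1 was at 10.22, 10.63 and 9.91 against 10.80, 10.70 and 10.65, lower on all 3 old arrays without passing (-0.47 ± 0.23, adjusted p = 0.32).

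Cd34, a surface sialomucin of quiescent satellite cells, was at 9.05, 8.65 and 8.90 in old Pax7Low, 8.02, 7.88 and 8.03 in young Pax7High, 7.01, 7.52 and 7.20 in young Pax7Low and 8.34, 8.26 and 8.23 in old Pax7High. The old Pax7Low arrays were the highest of all 12 and the young Pax7Low arrays the lowest. The difference from young Pax7High was 0.90 ± 0.21 (adjusted p = 0.038), and it was lost without any 1 of the young Pax7High arrays (adjusted p from 0.079 to 0.16), without old Pax7Low replicate 1 (0.081) or 3 (0.084), and without young Pax7Low replicate 3 (0.063). Met, the receptor for hepatocyte growth factor, was at 6.79, 6.95 and 7.19 against 7.99, 7.92 and 8.54 (-1.18 ± 0.27, adjusted p = 0.036), and Peg3, an imprinted zinc finger gene, was at 7.98, 6.96 and 7.12 against 8.53, 8.85 and 9.08 (-1.47 ± 0.28, adjusted p = 0.015). Met lost its call with centred arrays and Peg3 kept it. Both lost it without old Pax7Low replicate 2 (adjusted p = 0.078 and 0.053) and without young Pax7High replicate 2 (0.084 and 0.071) or 3 (0.19 and 0.089).

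On the quiescence list 1 of 27 genes rose, Fos, and 3 fell, the collagens Col6a1, Col15a1 and Col5a3, so that all 4 belong to groups already described. The list median was -0.19. None of the 3 collagen calls held with centred arrays or without young Pax7High replicate 2 or 3 (adjusted p from 0.10 to 0.20). Col6a1 was at 5.02, 6.24 and 5.68 against 6.81, 7.51 and 7.36 (-1.58 ± 0.32), and Col15a1 at 5.67, 5.22 and 5.64 against 6.20, 7.07 and 6.89 (-1.21 ± 0.27). Of 16 genes of the Notch pathway, which keeps satellite cells quiescent, 0 were called in either direction (limma, 2 at an unadjusted p under 0.05), and 10 had intervals inside -1 to 1. Hes1, a Notch target, was at 6.03, 6.82 and 6.42 against 5.43, 5.83 and 5.67, higher on every array, with a difference of 0.78 ± 0.23 (adjusted p = 0.099). Notch1 and Notch3 differed by -0.12 and -0.03.

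Imprinted genes, expressed from 1 parental copy and active in young tissues, had 3 of 32 called, all lower, with a median of -0.24. Zim1, a neighbour of Peg3, was at 4.35, 2.21 and 3.13 in old Pax7Low against 6.12, 5.60 and 6.40 in young Pax7High (-2.81 ± 0.49, adjusted p = 0.0099), and at 6.08, 5.11 and 5.66 in young Pax7Low and 4.67, 4.51 and 3.20 in old Pax7High. Meg3, a long noncoding RNA, was at 6.63, 6.44 and 6.15 against 8.15, 8.76 and 7.63 (-1.78 ± 0.34, adjusted p = 0.016). Peg3, given above, was the other. The adjusted p of Zim1 was 0.064 without young Pax7High replicate 3, and that of Meg3 was 0.086 without replicate 2. Under centring the 3 calls stood and the list median was -0.01.

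**Figure D4:**
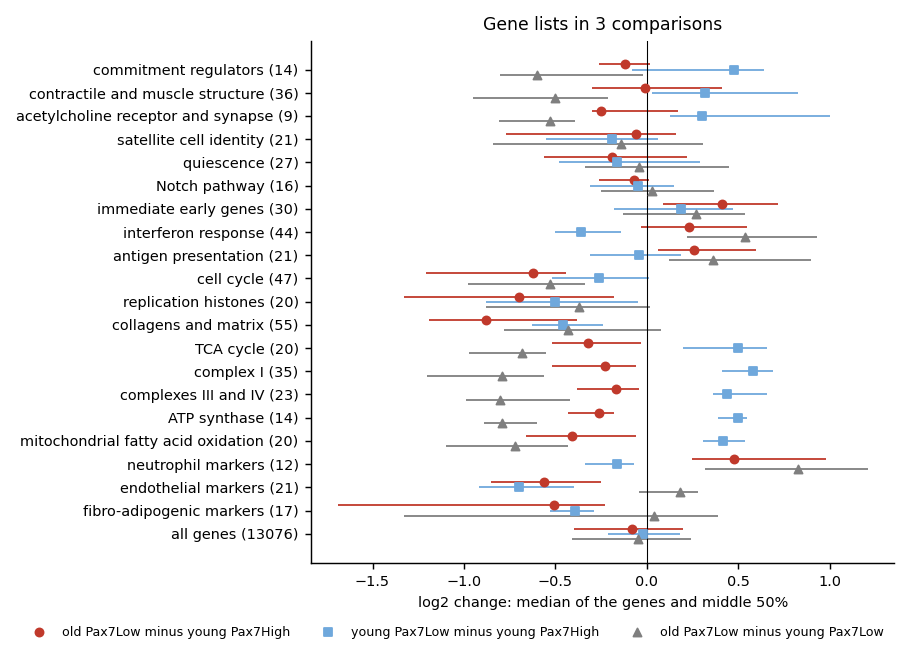
Median log2 change of the genes of each list (points) and the range of their middle 50% (lines), with the number of measured genes in brackets, in 3 comparisons that share arrays in pairs. Relative to young Pax7High, old Pax7Low (red) lies furthest below 0 for matrix genes (-0.88), replication histones (-0.70) and cell cycle genes (-0.62), whereas young Pax7Low (blue) lies above 0 for the oxidative lists, between 0.42 and 0.58.

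Immune genes had few calls against young Pax7High. Ccl19, a chemokine that guides cells bearing Ccr7, was at 9.38, 9.67 and 9.17 in old Pax7Low and 10.06, 9.61 and 9.07 in old Pax7High, against 7.11, 7.51 and 7.21 in young Pax7High and 7.24, 6.58 and 6.67 in young Pax7Low. The old fractions lay above the young ones without overlap, and the difference was 2.13 ± 0.28 (adjusted p = 0.002, 4.37-fold). It was called with every array left out. The mouse genome holds near-identical copies of Ccl19, which had 5 probe sets here, so that its source among the copies is uncertain. Of 42 chemokine and cytokine genes it was the only one that rose. Cxcl3, a ligand for neutrophils, and Tgfb2 fell, at 5.73, 5.78 and 4.17 against 7.73, 7.16 and 6.69 and at 6.32, 5.69 and 6.34 against 7.58, 7.48 and 7.46, and both calls were lost with centred arrays and without any 1 of the young Pax7High arrays (adjusted p from 0.072 to 0.12). Young Pax7Low cells were also low in Cxcl3, at 4.75, 4.38 and 4.03, and old Pax7High cells were high, at 8.21, 7.13 and 6.88.

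Of 44 interferon response genes 1 rose, Irgm1, and 0 fell, with a median of 0.23 and 32 above 0. Irgm1, an interferon-induced GTPase, was at 7.70, 7.76 and 7.78 in old Pax7Low, 5.95, 6.79 and 5.30 in young Pax7High, 5.71, 5.38 and 5.47 in young Pax7Low and 7.62, 6.82 and 6.99 in old Pax7High (1.73 ± 0.33, adjusted p = 0.014). Without young Pax7High replicate 3 its adjusted p was 0.071. Of 21 antigen presentation genes and 18 complement genes 0 were called by limma (4 and 3 at an unadjusted p under 0.05), with medians of 0.26 and 0.15. B2m, the light chain of class I molecules, was at 10.61, 10.47 and 10.21 against 9.53, 10.05 and 9.91, higher on every array (0.60 ± 0.24, adjusted p = 0.22).

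Levels of neutrophil markers are given beside these genes. S100a8 was at 10.35, 9.70 and 10.39 in old Pax7Low and 10.61, 9.97 and 10.12 in old Pax7High, against 7.29, 8.21 and 8.71 in young Pax7High, and the difference of 2.07 ± 0.68 did not pass (adjusted p = 0.13). For the 12 markers the summed level, in linear RMA units, was 1382 to 2525 in old Pax7Low, 419.8 to 889.4 in young Pax7High and 2132 to 2832 in old Pax7High, with a median difference of 0.48 and 0 called by limma (4 at an unadjusted p under 0.05). Lyz2 was at 6.89, 7.20 and 7.92 in old Pax7Low against 4.75, 6.42 and 5.77 in young Pax7High, without overlap (1.69 ± 0.60, adjusted p = 0.17). Of 21 macrophage and monocyte markers 0 were called (1 unadjusted) and 18 were above 0, with a summed level of 598.6 to 918.2 against 356.3 to 551.5. Lymphocyte markers summed to 104.1 to 149.4 against 88.8 to 105.1. RMA values have no true zero, and the part of these cells in the immune differences was not tested.

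Cyp26a1, which breaks down retinoic acid, rose in old Pax7Low cells. It was at 6.10, 6.77 and 6.10 in old Pax7Low, 4.87, 4.38 and 3.79 in young Pax7High, 2.94, 3.37 and 2.84 in young Pax7Low and 8.35, 7.68 and 7.69 in old Pax7High. No 2 groups overlapped, and at each age Pax7Low lay below Pax7High. The difference was 1.98 ± 0.31 (adjusted p = 0.0053), called with every array left out, and it was 3.27 against young Pax7Low (adjusted p = 0.00026). Of 26 genes of retinoid metabolism and response it was the only one called, with a list median of 0.09. Aldh1a1, which makes retinoic acid, was at 6.69, 5.97 and 6.54 against 4.71, 6.04 and 5.76, with overlap (0.90 ± 0.39, adjusted p = 0.27).

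Genes of oxidative metabolism had few calls between old Pax7Low and young Pax7High and many between old and young Pax7Low. On 5 oxidative lists (TCA cycle, complex I, complexes III and IV, ATP synthase, mitochondrial fatty acid oxidation) 112 genes were measured. Against young Pax7High 0 rose and 1 fell, with a median of -0.26 and 66 intervals (58.9%) inside -1 to 1, close to the 61.1% of all probe sets. At an unadjusted limma p under 0.05 there were 27 (24.1%), against 16.9% of all probe sets. In the order of the lists, 15 of 20, 27 of 35, 21 of 23, 13 of 14 and 16 of 20 were below 0. Of all 13076 genes 7459 were. Against young Pax7Low 0 rose and 41 fell (0.959% and 4.05% of all probe sets), with a median of -0.78, and young Pax7Low against young Pax7High gave 0 called in either direction (limma, 43 at an unadjusted p under 0.05) with a median of 0.50. With centred arrays the 5 list medians against young Pax7High were between -0.18 and 0.06, and the 1 call was lost. That call was Acaa2, the last enzyme of the fatty acid spiral, at 4.85, 4.68 and 4.37 against 5.86, 5.67 and 5.83 (-1.15 ± 0.22, adjusted p = 0.016), which was also lost without young Pax7High replicate 1, 2 or 3 (0.052, 0.054 and 0.08).

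Cpt1a, the gate for fatty acids into mitochondria, was at 5.53, 4.80 and 5.66 in old Pax7Low against 5.82, 6.42 and 6.88 in young Pax7High, lower on every array without passing (-1.04 ± 0.34, adjusted p = 0.14). Ndufa9 of complex I was at 6.19, 5.72 and 5.99 against 6.01, 6.38 and 6.46, and at 6.73, 7.42 and 7.26 in young Pax7Low. Cox5a of complex IV was at 7.83, 8.05 and 8.24 against 8.29, 8.47 and 8.29, and at 8.83, 9.03 and 9.11 in young Pax7Low. Pdk4, which shuts pyruvate out of the TCA cycle, was at 9.45, 8.85 and 9.22 against 9.10, 9.44 and 9.45 (interval -0.63 to 0.32). Cat (catalase), of the peroxisome, was at 5.88, 6.33 and 6.11 against 6.72, 6.34 and 6.70 (-0.48 ± 0.37, adjusted p = 0.53). Peroxisomal fatty acid oxidation, glycolysis, pyruvate dehydrogenase and proteasome lists had 0 of 15, 22, 12 and 26 genes called against young Pax7High (limma, with 2, 5, 3 and 8 at an unadjusted p under 0.05), with medians of 0.03, -0.11, -0.14 and -0.43.

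Further genes named by the rule have a part in lipid handling, for which no list was tested beyond the fatty acid oxidation lists above. Lpl, which frees fatty acids from lipoproteins, was at 7.36, 6.70 and 6.81 in old Pax7Low, 8.97, 9.26 and 9.39 in young Pax7High, 9.01, 8.58 and 8.80 in young Pax7Low and 6.37, 7.02 and 7.89 in old Pax7High (-2.25 ± 0.33, adjusted p = 0.0041), and was called with every array left out. Apoc1, an apolipoprotein, was at 5.70, 5.46 and 6.92 against 3.75, 4.40 and 4.18 (1.92 ± 0.40, adjusted p = 0.025). Elovl4, an elongase of very long fatty acids, was at 4.47, 6.29 and 6.71 against 3.65, 3.80 and 3.73 (2.10 ± 0.49, adjusted p = 0.042). The last 2 calls were lost without any 1 of the young Pax7High arrays (adjusted p from 0.068 to 0.16) and without old Pax7Low replicate 3 (0.063 and 0.13), and Elovl4 also without old Pax7Low replicate 2 (0.11), old Pax7High replicate 1 (0.051) or any 1 of the young Pax7Low arrays (0.059 to 0.069).

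Among the other genes with the largest rise, Tuba4a, a tubulin, was at 8.86, 8.92 and 9.05 in old Pax7Low against 7.18, 6.94 and 6.91 in young Pax7High (1.94 ± 0.26, adjusted p = 0.0023), and old Pax7High was at 8.70, 8.45 and 8.45. Bambi, a decoy receptor for the Tgf-beta family, was at 7.03, 7.07 and 6.35 against 4.93, 4.96 and 5.11 (1.81 ± 0.28, adjusted p = 0.0052). Its old Pax7Low arrays lay above all 9 others. Bmi1, a polycomb protein that represses Cdkn2a, was at 6.70, 6.12 and 7.08 against 4.84, 5.31 and 5.46 (1.43 ± 0.26, adjusted p = 0.012), also above all others. These 3 genes kept their calls on every array left out. Bex1, a small adaptor protein gene of the X chromosome, was at 5.75, 6.48 and 6.05 against 3.56, 3.42 and 3.08 (2.74 ± 0.59, adjusted p = 0.03) and had the largest rise. Tnfsf9, the ligand of 4-1BB, was at 6.39, 3.94 and 5.47 against 2.62, 3.24 and 3.48 (2.15 ± 0.49, adjusted p = 0.036). Inmt, a methyltransferase, Ms4a4d and Ankrd29 rose by 1.57, 1.57 and 1.44. Each of these last 5 genes lost its call without young Pax7High replicate 1 or 3 and without old Pax7Low replicate 3, with an adjusted p of up to 0.16 on leaving out 1 array.

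Among the genes with the largest fall, Tnfrsf21 (death receptor 6) was at 4.78, 3.52 and 4.76 in old Pax7Low against 6.84, 7.24 and 7.04 in young Pax7High (-2.69 ± 0.35, adjusted p = 0.002). Ttyh1, of a family of chloride channels, was at 5.05, 4.51 and 5.53 against 7.04, 7.69 and 7.74 (-2.46 ± 0.30, adjusted p = 0.0017), and Crybg3 averaged 4.31 against 6.65 (-2.34 ± 0.29, adjusted p = 0.0017). All 3 kept their calls on every array left out and with centred arrays. Young Pax7Low cells lay above old Pax7Low cells without overlap for each of them. Chad (chondroadherin), Fv1, a gene that restricts retroviruses, and Fndc1 fell by 2.31, 2.30 and 2.29 on the log2 scale. Chad lost its call without young Pax7High replicate 3 (adjusted p = 0.065), Fndc1 without replicate 2 (0.072) or 3 (0.079), and Fv1 without replicate 1 (0.062) or 2 (0.054) or old Pax7Low replicate 3 (0.058). On the p53 and senescence list 1 of 22 fell, Sesn1, at 4.31, 3.61 and 3.88 against 4.65, 5.07 and 5.59, with an adjusted p at the threshold (0.05 when rounded) and no call with centred arrays.

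**Figure D5:**
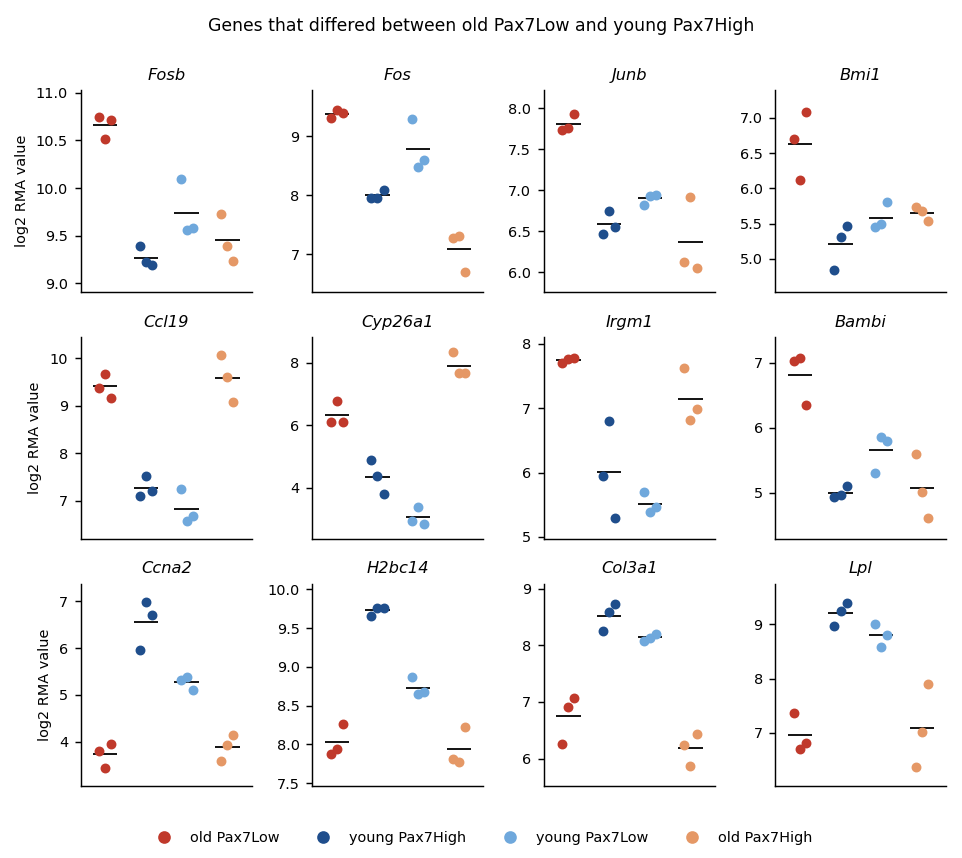
Log2 RMA values of 12 genes called between old Pax7Low and young Pax7High (vertical axes) on the 3 arrays of each group, with a bar at the group mean and replicates 1 to 3 from left to right. Fosb, Junb, Bmi1 and Bambi are highest in old Pax7Low alone, Ccl19, Cyp26a1 and Irgm1 are high in both old fractions, and Ccna2, H2bc14, Col3a1 and Lpl are low in both old fractions.

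Between the old fractions 12 probe sets of 11 genes were called, while 3.34% of all probe sets differed by at least 1 log2 unit, against 5.59% between old Pax7Low and young Pax7High. These genes were named after their values were seen. Fos, Junb, Nr4a1, Bambi, Mest and Ttc9c were higher in old Pax7Low than in old Pax7High, and Ccn4, Pmm2, Polr1e, Tead1 and Znhit6 were lower. Tead1, a transcription factor of the Hippo pathway, was at 6.29, 5.67 and 6.14 in old Pax7Low, 7.69, 7.96 and 7.67 in young Pax7High, 7.69, 8.01 and 8.12 in young Pax7Low and 7.09, 7.67 and 7.96 in old Pax7High. Its old Pax7Low arrays lay below all 9 others, and the difference was -1.74 ± 0.26 from young Pax7High (adjusted p = 0.0043) and -1.54 from old Pax7High (adjusted p = 0.046). Znhit6, which assembles small nucleolar ribonucleoproteins, was at 4.14, 3.90 and 4.18 against 6.11, 5.85 and 6.19 in young Pax7High and 6.83, 5.96 and 5.86 in old Pax7High. Polr1e, a subunit of RNA polymerase I, was at 4.25, 3.79 and 3.88 against 5.94, 5.57 and 5.42. Ccn4, a matricellular protein of the Wnt response, was at 4.95, 4.93 and 4.69 in old Pax7Low against 6.60, 6.88 and 6.89 in young Pax7High and 6.44, 6.62 and 6.32 in old Pax7High, and young Pax7Low cells were near old Pax7Low, at 5.11, 5.66 and 4.96. Mest, an imprinted gene, was at 7.79, 7.38 and 8.02 in old Pax7Low against 7.52, 8.65 and 8.47 in young Pax7High, with overlap (-0.49 ± 0.35, adjusted p = 0.49), and at 5.96, 5.79 and 5.05 in old Pax7High. The count of 12 was 29 without old Pax7Low replicate 2 and 22 without old Pax7High replicate 2. It was 5 or 6 without young Pax7High replicate 2 or 3 or any 1 of the young Pax7Low arrays, and 0 when only the 6 old arrays entered the fit.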

How the data were processed

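Expression was measured on 12 Affymetrix Mouse Gene 1.0 ST arrays, 3 for each of 4 groups taken from the sample titles. The authors isolated cells from enzymatically digested limb muscle by flow cytometry on size, granularity and GFP, and deposited log2 values after RMA (background correction, quantile normalisation, probe set summary). The submitters' notes list RMA and limma with no version. Probe sets that were invariant or not expressed had been taken out before deposit, and the cut-offs are not given in the sources used here. Removal after normalisation leaves array medians unequal. The table held 18007 probe sets, from 0.849 to 12.627. No detection call comes with such values, and the number of arrays limits the precision. The labels' ages were used; the study's text gives other ranges.

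Genes were named from the platform annotation: 14184 probe sets had 1 symbol, 741 several and 3082 none, the last 2 kinds not used. Of the 14184, 14136 were found in the RefSeq table (GRCm38.p6), and 0 symbols changed. Group means were fitted with limma 3.58.1 in R 4.3.3 (lmFit, eBayes, two-sided), with all 12 arrays in 1 fit without a block, 5 comparisons and Benjamini-Hochberg adjustment over 14184 probe sets within each comparison. A call is an adjusted p under 0.05. A gene is represented by its probe set with the highest mean, and 635 genes had several. Intervals are 95%.

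Members, the 36 gene lists and the tests were chosen with earlier results of these data known. Genes named were the 15 highest and 15 lowest called without overlap (no predicted genes, clones, small RNAs or pseudogenes), up to 4 called members of each list, the 10 highest in young Pax7Low against young Pax7High, and a fixed set. Further genes are list members given with their values. On simulated data for 14184 probe sets with the measured spreads, the fit recovered most changes of 2 log2 units and a minority of those of 1.

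Alternatives changed the filter, the scaling, the arrays in the fit, array weights, the replicate block and the threshold, or left out 1 array. Tables were made in Python 3.11.15 with pandas 2.3.3.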

Additional observations from a re-analysis of the deposited data

How the results depend on the processing

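Counts of calls followed the threshold, the scale and the arrays in the fit, and no call of a named gene turned its direction under any alternative. Of the 55 named genes called between old Pax7Low and young Pax7High, 43 kept the call with centred arrays, 43 after a second quantile normalisation, 42 with the trend removed, 26 when only the 6 arrays entered the fit and 22 at an adjusted p under 0.01. Depth has no counterpart on these arrays, and signal over background could not be assessed. The cause of the changes below was not tested, other than fewer arrays in a fit or a stricter threshold.

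With centred arrays the calls in old Pax7Low against young Pax7High were 177 in place of 322 (70 higher, 107 lower), after a second quantile normalisation 204 (72 and 132), with the trend removed 206 (79 and 127), with only the groups compared 106 (18 and 88) and at an adjusted p under 0.01 88 (10 and 78). In the same order of settings, old against young Pax7Low gave 472, 449, 453, 309 and 131 in place of 710. For young Pax7Low against young Pax7High, 103 became 256 with only the groups compared, 484 with array weights, 338 with array weights by group and 38 at the stricter threshold. Old Pax7Low against old Pax7High went from 12 to 0 with only the groups compared (1487 at an unadjusted p under 0.05 in the fit of all arrays), 19 with limma-trend and robust eBayes, 1 and 2 with the array weights and 2 at the stricter threshold. Old against young Pax7High went from 246 to 162 with centred arrays, 108 with only the groups compared, 397 with array weights and 49 at the stricter threshold. Filters at the 40th and 60th percentile left 4620 and 2999 intervals inside -1 to 1 in place of 8663. The share of the probe sets tested also fell, to 49.0% and 45.1% in place of 61.1%.

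Commitment calls were 1 in place of 3 under each of the 3 scalings (Mymk) and with only the groups compared (Chrna1, with Mymk at adjusted p = 0.081), and 0 at the stricter threshold. Cell cycle calls were 5 in place of 17 with the filter at the 60th percentile, 11 with centred arrays, 8 with only the groups compared and 10 at the stricter threshold. Histone calls were 4 in place of 8 with centred arrays, 5 with the trend removed, 3 with only the groups compared and 4 at the stricter threshold. Matrix calls were 9, 11 and 9 in place of 19 under the 3 scalings, 2 with only the groups compared and 5 at the stricter threshold. Immediate early calls were 3 in place of 5 with only the groups compared and 1 at the stricter threshold.

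Leaving out 1 array gave 84 to 401 calls in old Pax7Low against young Pax7High (14 to 66 higher, 70 to 344 lower), 31 to 130 in young Pax7Low against young Pax7High, 150 to 852 in old against young Pax7Low, 5 to 29 between the old fractions and 45 to 327 in old against young Pax7High. Intervals inside -1 to 1 numbered 6795 to 8947. Commitment calls were 0 to 4, cell cycle 7 to 18, histones 3 to 8, matrix 3 to 19 and immediate early genes 1 to 5. The lowest counts of old Pax7Low against young Pax7High came without young Pax7High replicate 3 (84) and 2 (111).

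Deviations of same-numbered arrays from their group means had correlations from -0.04 to 0.12. Between the 2 old fractions these were 0.045 to 0.056, and between the 2 young fractions -0.010 to 0.124. With 3 arrays a group such values cannot show whether the numbers pair the samples, and the titles do not say. With the replicate number as a block, 279 probe sets were called between old Pax7Low and young Pax7High (40 higher, 239 lower), 103, 612, 8 and 230 in the other 4 comparisons in the order above, and 8680 intervals lay inside -1 to 1. Under the block 4 commitment, 16 cell cycle, 7 histone, 15 matrix and 4 immediate early genes were called.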

Other observations

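Small RNAs on the array, which the naming rule left out of the report, had 263 probe sets with 1 symbol and a median difference between old Pax7Low and young Pax7High of 0.24, against -0.08 over all probe sets. Of these, 5 were called higher and 0 lower. Scarna17, a guide RNA of Cajal bodies, was at 10.6, 10.6 and 10.3 in old Pax7Low and 8.64, 8.15 and 9.09 in young Pax7High (1.87 ± 0.334, adjusted p = 0.0106). Its 2 probe sets gave the same values. Snord33, a small nucleolar RNA, was at 7.73, 7.90 and 8.64 against 5.97, 5.58 and 6.73 (1.99 ± 0.453, adjusted p = 0.0362). Terc, the RNA template of telomerase, was at 7.66, 7.45 and 7.35 against 6.01, 5.59 and 6.18 (1.56 ± 0.314, adjusted p = 0.0211), and at 5.75, 6.27 and 6.59 in young Pax7Low and 6.19, 6.52 and 7.41 in old Pax7High. Mir677 rose by 2.15 ± 0.447, and such probe sets may read the precursor or host transcript as well as the mature RNA. The part of RNA preparation, which goes with age, was not tested.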
